A study of Mus musculus with 2 samples.

Results

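Thyrotropin-releasing hormone (Trh) and 7 genes of its receptor and maturation were followed in mouse embryonic stem cells (mESCs) given LIF or LIF plus CHIR. The 8 genes were taken by symbol from the 30774 gene identifiers of an Illumina mouse beadchip, and each matched 1 identifier. They are the precursor gene Trh, the receptor gene Trhr, and Pcsk1, Pcsk2, Furin, Cpe, Pam and Qpct, which encode enzymes that cut, trim, amidate or cyclize peptide hormones. At a limit of 0.01, 2 of the 8, Trh and Cpe, were detected above the array background, against 31.2% of all identifiers. Furin, with signals of 180.5 in LIF and 223.0 in LIF plus CHIR, missed that limit. Trh signal was 2.29-fold higher in LIF plus CHIR, and Cpe signal was 1.37-fold lower. Of the 2 detected genes, 1 was thus higher by 1.5-fold or more and 0 were lower. Among all detected identifiers with a ratio the shares were 2.64% and 2.92%. The paper had already named Trh from a screen of these arrays for genes at least 1.5-fold higher with CHIR. That Trh passed this limit was therefore known beforehand and is no independent result. The 6 undetected genes could not be called.

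Both samples are labelled B6 mESCs of inner cell mass origin from E3.5 embryos, grown in serum with LIF, a cytokine that signals through Stat3. The sample labelled LIF/CHIR99021 also received CHIR99021 (CHIR), a GSK3 inhibitor that activates Wnt/β-catenin signaling, for 12 h, and the sample labelled LIF did not. The growth note of both samples mentions CHIR, so the groups rest on the titles, and the CHIR concentration for the array is not given in the sources used here. The paper's flow chart names another line, 46C. There was 1 array per condition, so no value below has a replicate, no p-value for a difference exists, and an effect of CHIR cannot be told apart from other differences between the 2 cultures. In bulk RNA, fewer cells with a transcript and less transcript per cell cannot be told apart either.

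TRH is a short amidated peptide best known from the hypothalamus, where it drives release of thyroid-stimulating hormone from the pituitary. It is made from a larger precursor that carries several copies of the hormone sequence between basic residues. Convertases of the Pcsk family cut at those residues, carboxypeptidase E (Cpe) removes the basic ends, glutaminyl cyclase (Qpct) closes the first residue into a ring, and the monooxygenase Pam makes the terminal amide. Trhr is the G-protein-coupled receptor that the finished peptide binds.

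The promoters of Trh and Pcsk1 are shown because the former is the precursor whose signal differed and the latter is a convertase that stayed at background on both arrays. RefSeq sequences of assembly GRCm38.p6 (250 bases before and 50 after the start site) were matched to 5 of the 8 genes, as 7 sequences. Trhr, Cpe and Qpct were not matched. The Trh sequence is chr6:92244601-92244900 on the minus strand and the Pcsk1 sequence is chr13:75089607-75089906 on the plus strand, both printed 5′ to 3′. Capitals in Trh mark, in order, a TCF/LEF-type match, a GC box, a thyroid hormone receptor core motif on the opposite strand and a TATA match. Capitals in Pcsk1 mark a TCF/LEF-type match, a cyclic AMP response element (CRE) and a GC box on the opposite strand.
Trh: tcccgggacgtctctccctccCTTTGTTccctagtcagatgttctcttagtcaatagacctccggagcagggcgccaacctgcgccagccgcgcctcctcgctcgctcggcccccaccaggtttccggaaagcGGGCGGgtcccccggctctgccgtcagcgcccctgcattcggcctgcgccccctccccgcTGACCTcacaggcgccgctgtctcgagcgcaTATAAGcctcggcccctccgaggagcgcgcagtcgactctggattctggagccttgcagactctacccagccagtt
Pcsk1: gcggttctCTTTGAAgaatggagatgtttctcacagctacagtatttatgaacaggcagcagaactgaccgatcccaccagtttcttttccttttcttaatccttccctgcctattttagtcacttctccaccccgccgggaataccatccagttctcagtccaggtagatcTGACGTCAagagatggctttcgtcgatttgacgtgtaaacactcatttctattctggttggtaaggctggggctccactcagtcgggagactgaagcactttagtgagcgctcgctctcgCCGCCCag

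Motifs were searched on both strands, with the Trh and Pcsk1 sequences already known when they were chosen. The TCF/LEF search (CTTTG, then A or T, then A or T) had 1 match in Trh, at base -229 from the start site, and 1 in Pcsk1, at -242, and 16.9% of 32851 promoters of the same length held one. The thyroid hormone receptor core motif AGGTCA, which Trh held at -57, occurred in 16.3% of promoters, and the TATA motif (TATAA, then A or G), which Trh held at -26, in 18.8%. The GC box GGGCGG, to which Sp and Klf factors bind, occurred in 35.7% and was present in both printed windows, at -117 in Trh and at 42 in Pcsk1. The palindromic CRE TGACGTCA, present in Pcsk1 at -78, occurred in 1.79% and not in the Trh window. The STAT-type motif TTCNNNGAA occurred in 8.30% and in neither window. These matches describe the letters only.

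On the beadchip, beads with gene-specific probes report RNA abundance as signal intensity in arbitrary units, and negative control beads give the background, which had been subtracted before deposit. A detection p-value is the share of negative controls at least as bright as the gene, or a combined value for identifiers with several probes. With a limit of 0.01 on that value, the LIF array detected 9021 identifiers, the LIF plus CHIR array 9174, and at least 1 of them 9615 (31.2%). The median signal was 10.5 and 10.4, and the brightest identifier had 57706 and 57868. Of 10 pluripotent cell markers 8 were detected, among them Dppa5a (57706 without and 55731 with CHIR), Esrrb (10986 and 14053) and Pou5f1 (12347 and 11309). Fgf4 signal was 1.66-fold lower with CHIR, the only one of these markers past 1.5-fold. Just inside that limit, Klf4 (965.7 and 1444) was 1.49-fold higher and Nanog (1660 and 2429) 1.46-fold higher. Utf1 (5585 and 3972) was 1.41-fold lower. Sox2 and Tdgf1 were not detected. Tdgf1 had 26.6 and 14.6, but Sox2 had 441.2 and 400.2, with detection p-values of 0.050 and 0.28. Of 10 fibroblast markers only Fn1 was detected, although Thy1 had 222.3 and 225.3. Sox2 and Thy1 appear to have several probes, and a missed call does not show that they were absent. Axin2, which Wnt/β-catenin signaling induces and whose product restrains that pathway, had a signal of 314.1 without and 1178 with CHIR, which is the direction known for GSK3 inhibition.

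Trh (Entrez gene 22044, chromosome 6, band 6qD1) had a signal of 8479 in LIF and 19446 in LIF plus CHIR. Both signals were brighter than every negative control, and the place of Trh in the brightness order of 30774 identifiers was 570 on the LIF array and 210 on the LIF plus CHIR array. This is an order of signals and not of transcript amounts. Trh was thus bright without CHIR and brighter with it. The increase of 10967 units was the largest rise or fall in signal of any identifier, on a linear scale that favours bright probes.

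As a ratio, Trh was 2.29-fold higher (log2 fold change 1.20). Among all 9359 detected identifiers with a ratio, 247 (2.64%) were higher by 1.5-fold or more and 273 (2.92%) lower, with a median log2 fold change of 0.00. Ratios spread less among bright identifiers. Where the brighter signal was 1000 or more, 39 of 3269 (1.19%) were at least 1.5-fold higher, and where it was 10000 or more, 4 of 495 (0.808%) were higher and 0 were lower. A log2 fold change as large as that of Trh in either direction was held by 9 of the 3269, Trh included. Among 3075 identifiers with a signal of 1000 or more on both arrays, Trh ranked 2 by rise. Among 885 with 5000 or more on both, a limit chosen after the values were seen, it ranked 1, and the next was Mylpf with a log2 fold change of 1.02. The paper had named Trh and Sp5 from these same arrays by a limit of 1.5-fold. These places describe a gene already picked for its rise and give no separate evidence for it.

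**Figure D1:**
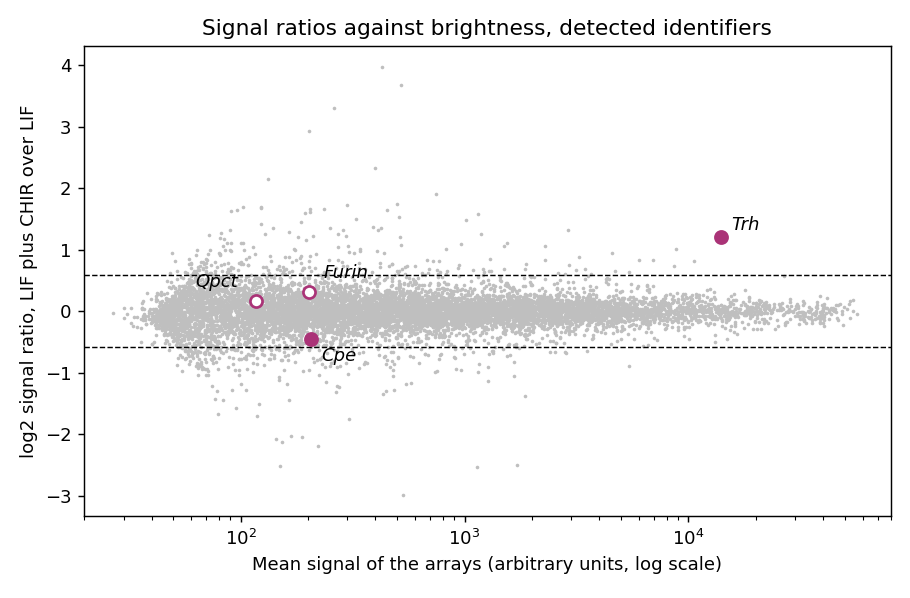
Each grey point is a detected identifier, with the mean signal of the arrays on a log axis against the log2 ratio of LIF plus CHIR over LIF, and dashed lines mark 1.5-fold. Trh lies apart at the bright end (log2 1.20), Cpe (filled, -0.45) lies inside the lines, and Furin and Qpct (open circles) are plotted at their plain signal ratios because they were not detected.

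Cpe, the exopeptidase that removes basic residues after convertase cleavage, was the other detected gene. The LIF array gave Cpe a signal of 237.6 and the LIF plus CHIR array 173.9, both above every negative control. The ratio was 1.37-fold lower with CHIR (log2 fold change -0.45), which did not reach the 1.5-fold limit. Among detected identifiers with a brighter signal of 100 to 300, where 4.63% were higher and 4.81% lower by 1.5-fold or more, 349 of 2182 identifiers were at least as far from 0 in either direction. This Cpe entry comes from the MEEBO part of the array annotation and carries no Entrez gene number, so it was matched by symbol alone.

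The remaining 6 genes were not detected at 0.01 on either array. Trhr, the receptor gene, had a signal of -17.1 in LIF, where 900 of 936 negative controls were at least as bright, and -1.20 in LIF plus CHIR, where 371 were. Both signals lay within the background. Pcsk1 and Pcsk2 encode the convertases of the regulated secretory pathway, which cut most neuropeptide precursors. Pcsk1 had -4.05 in LIF and -4.87 in LIF plus CHIR. Pcsk2 had -6.06 and -5.20. For both genes the signals were below 0 after background subtraction, with detection p-values between 0.48 and 0.77. Pam, the amidating enzyme, had 3.65 in LIF and 17.1 in LIF plus CHIR, with detection p-values of 0.42 and 0.27. These signals were below the dimmest detected identifier with 1 probe (51.9 on the LIF array, 47.1 on the other), a value used throughout as the minimum signal, so no ratio is given for these 4 genes.

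Furin and Qpct were brighter but still not called. Furin, the convertase of the trans-Golgi network that acts in most cell types, had a signal of 180.5 in LIF and 223.0 in LIF plus CHIR, with detection p-values of 0.044 and 0.049. Qpct, which forms the terminal pyroglutamate, had 111.1 and 124.2, with detection p-values of 0.47 and 0.50. Their plain ratios were 1.24-fold (log2 0.31) for Furin and 1.12-fold (log2 0.16) for Qpct, and 28.9% and 54.4% of identifiers in the same brightness range were at least as far from 0. Both appear to be measured by several probes, so that a mean signal above the minimum can go with a combined detection p-value that misses the limit. Of 5590 undetected identifiers of that kind, 1444 had such a signal. At a detection p-value under 0.05 Furin was detected on both arrays, and counting by signal alone would add Furin and Qpct. In all, 5 of the 8 genes (Pcsk1, Pcsk2, Pam, Qpct and Furin) appear to have several probes. Such identifiers were detected in 24.8%, and those taken to have 1 probe in 33.3%. These classes were drawn from the detection p-values themselves. An identifier above every negative control on both arrays counts as having 1 probe, so the shares do not compare the kinds of probe. The 2 detected genes of 8 compare with 31.2% of all identifiers.

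**Figure D2:**
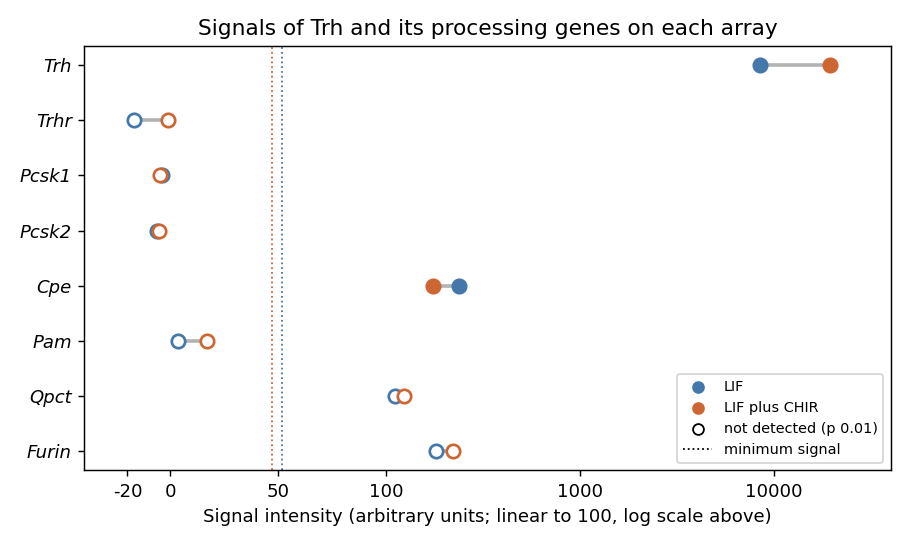
Signal intensity of each gene in LIF (blue) and LIF plus CHIR (orange), on an axis that is linear to 100 and logarithmic above, with open circles for genes not detected at 0.01 and dotted lines at the minimum signal of each array. Trh lies at 8479 and 19446, Cpe at 237.6 and 173.9, and Trhr, Pcsk1, Pcsk2 and Pam lie under the dotted lines on both arrays. Levels of different genes come from different probes and are not comparable.

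The wider pathway was then read from gene lists. Over all identifiers 31.2% were detected, and the detected counts of each list stand beside that share. Of 6 genes for TRH receptors and TRH-degrading enzymes, 2 were detected and neither reached 1.5-fold. Pgpep1, the cytosolic pyroglutamyl peptidase, had a signal of 743.3 without CHIR and 836.5 with it (1.13-fold higher). Prep, the prolyl oligopeptidase, had 621.3 and 785.7 (1.26-fold higher). The TRH-specific ectoenzyme gene Trhde had -8.36 and -13.6 and the second receptor gene Trhr2 had -3.17 and -9.62, all within the background, and these genes are named for their role and not for their values. The transcripts of cytosolic peptidases that can degrade TRH were therefore detected, and those of its receptors and of the ectoenzyme were not.

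Of 11 genes for proprotein convertases and their modulators, 5 were detected, 4 of them had a ratio, and none of these 4 reached 1.5-fold (median log2 -0.03). The brightest of the detected genes were Mbtps1, the site-1 protease that cuts membrane-bound transcription factors (805.7 without CHIR and 973.7 with it), and Pcsk7, a ubiquitous convertase (512.5 and 465.4). Pcsk6, which appears to have several probes, was brighter than Pcsk7 (529.8 and 587.0) but missed the limit with detection p-values of 0.013 and 0.027. Pcsk1n, which encodes an inhibitor of the Pcsk1 enzyme, had 138.5 and 93.2 and was 1.49-fold lower, just inside the limit. It was named after its values were seen. Scg5, which encodes the chaperone of the Pcsk2 enzyme, had -3.94 and -1.38 and was not detected, like Pcsk2 itself. Among carboxypeptidase, amidation and cyclization genes, 3 of 8 on the array were detected, and the other gene with a ratio besides Cpe was Cpxm1, a carboxypeptidase-like gene, with 288.7 and 273.6 (1.06-fold lower).

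Dense-core granules, the vesicles in which neuroendocrine cells store and mature peptide hormones, were represented by 17 genes. Of these, 2 were detected, beside 31.2% of all identifiers, and neither reached 1.5-fold. Rab27a, a small GTPase of granule transport that many other cells also use, had 1863 without CHIR and 1287 with it (1.45-fold lower). Chga, the granule matrix protein chromogranin A, had 106.6 and 124.1 (1.16-fold higher). The other 15 had signals from -15.8 to 108.1 and included Chgb, Scg2, Scg3 and Vgf. The highest was Syt4, a synaptotagmin of vesicle release, with 108.1 without CHIR and 39.0 with it, at detection p-values of 0.025 and 0.058. It was not detected at 0.01, and 1 gene of this list counted as lower with a detection p-value of 0.05, with detection by signal or in the shorter table.

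Among 41 other neuropeptide and peptide hormone precursors on the array, 7 were detected, with 3 higher by 1.5-fold or more, 1 lower and a median log2 fold change of 0.44. Nppb, the precursor of brain natriuretic peptide, had a signal of 344.3 without CHIR and 572.9 with it (1.66-fold higher). Pdyn, the opioid precursor prodynorphin, had 218.3 and 140.5 (1.55-fold lower, a call lost with normexp background correction at log2 -0.58 and on the log2(signal + 50) scale at -0.49). Nmb, the neuromedin B precursor, had 232.3 and 190.1 and did not reach the limit. Edn1, the endothelin precursor, had 51.9 and 116.7, and Npy, neuropeptide Y, had 42.2 and 103.5. With the LIF signal raised to the minimum they were 2.25-fold and 1.99-fold higher. On the log2(signal + 50) scale their log2 fold changes were smaller, at 0.71 and 0.74, and still past the limit. Oxt had 47.8 and 50.1. Npy, Edn1 and Oxt were not detected in LIF and entered the list through their signals with CHIR. The count of 3 and the median are therefore not read against the 2.64% of all identifiers.

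**Figure D3:**
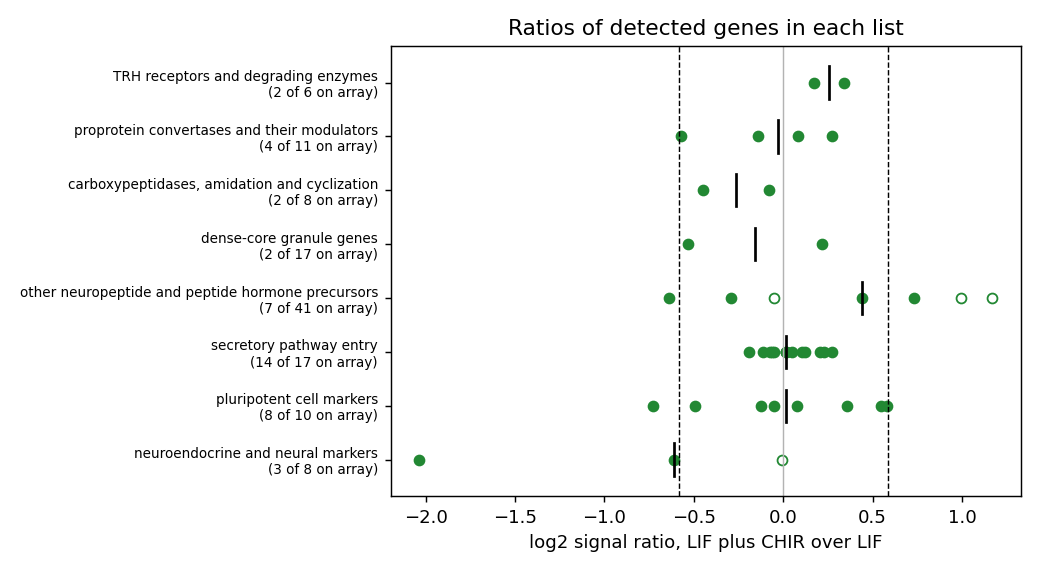
Each point is a gene with a ratio in LIF plus CHIR over LIF on the log2 scale, grouped by list, with black bars at the medians and dashed lines at 1.5-fold. Open circles are genes with a signal raised to the minimum on 1 array. The genes of hormone processing and granules that have a ratio lie inside the lines, and the precursors spread from -0.64 for Pdyn to 1.17 for Edn1. Of the cell type markers drawn, Insm1 (-2.04), Fgf4 (-0.73) and Syp (-0.61) lie outside the lines.

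Markers of cells that normally make or answer TRH were read beside these values. Of 8 pituitary markers 0 were detected, with signals from -19.5 to 25.6. The 14 genes of the pituitary and thyroid axis on the array also had 0 detected, among them Tshb, Prl and Tshr. Over all identifiers 31.2% were detected. Thra, a thyroid hormone receptor gene that appears to have several probes, had 50.9 without CHIR and 72.4 with it. Its detection p-values of 0.019 and 0.011 missed the limit closely. Of 8 neuroendocrine and neural markers read on the array, 4 were detected. Insm1, a zinc-finger factor of neuroendocrine differentiation, had 301.2 without CHIR and 73.5 with it (4.10-fold lower), and Syp, the vesicle protein synaptophysin, had 93.4 and 61.1 (1.53-fold lower, a call lost in the same settings at log2 -0.51 and -0.37). The other 2, Nes and Isl1, were detected with CHIR only. Nes, an intermediate filament of neural progenitors, had 27.7 and 44.8, and Isl1, a homeobox factor of motor and endocrine cells, had 34.0 and 51.8. The summed signal over all 8 was 476.7 without CHIR and 280.6 with it, and without Insm1 it was 175.5 and 207.1, so the direction of the sum rests on Insm1. Neurod1 and Pax6 were not detected, with signals from -14.6 to -5.58. The part of such cells in the values of Trh was not tested.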

How the data were processed

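The authors deposited background-subtracted signal intensity and a detection p-value per identifier and array. Software, normalization and bead numbers are not given in the sources used here. The longer table (30774 identifiers) was used. The 11702 identifiers of the shorter table, described as normalized, held identical values (0 differed). Detection p-values of 23344 identifiers were multiples of 1 over 936 on both arrays (within 0.001 of a whole number), and these were taken to have 1 probe. An identifier above every negative control on both arrays falls among them whatever its number of probes.

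In Python 3.11.15 (pandas 2.3.3, numpy 2.4.6), the LIF plus CHIR signal was divided by the LIF signal for each identifier detected at 0.01 by either array. Signals dimmer than any detected identifier with 1 probe (51.9 and 47.1) were raised to that minimum, and 256 identifiers under it on both arrays got no ratio. The calculation was tested on simulated arrays. Plots were drawn with matplotlib 3.10.9, and normexp correction used limma 3.58.1 in R 4.3.3. The number of arrays limits the precision.

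Members and lists were chosen with earlier results of these data known. Of 159 list genes, 137 matched by Entrez gene number through RefSeq (GRCm38.p6) and 17 by symbol, and 1 further marker is not reported here. Named genes were the 8 genes, list genes past 1.5-fold, the 2 brightest detected genes of each list, the 5 bright identifiers with ratios closest to Trh, and Axin2, Sp5, T and Cdx1 as a check of the treatment. Other list genes were named outside this rule, for their role, as undetected examples or after their values were seen.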

Additional observations from a re-analysis of the deposited data

How the results depend on the processing

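No paired analysis was possible because the groups hold only 1 sample each. Trh stayed between 1.19 and 1.20 on the log2 scale under all 10 alternatives that give it a value, and Cpe between -0.45 and -0.36. Changes of the detection rule or the minimum signal, and the shorter table with its identical values, could not alter these 2 ratios. Only quantile normalization, scaling to equal medians, normexp and log2(signal + 50) could move them. In each of 11 alternatives, 1 of the 8 genes was higher past the limit in use and 0 were lower. Detected genes rose from 2 to 4 when detection was set by signal, which was added after the data were seen. The counts over all identifiers (247 higher and 273 lower) were 65 and 44 at a limit of 2-fold. The shorter table was read as plain ratios with no detection limit, and there they were 680 and 684. The higher count was 395 without a minimum signal and 395 with a minimum from any detected identifier, and the lower count was 149 with log2(signal + 50). Over the pathway lists, 3 genes were higher and 1 was lower. The higher count was 1 with detection on both arrays and 1 at a limit of 2-fold. The lower count was 0 with normexp, 0 with log2(signal + 50) and 0 at 2-fold, 2 when a detection p-value of 0.05 sufficed, 2 with detection by signal, and 5 in the shorter table with plain ratios. Pdyn (-0.64) was -0.58 with normexp and -0.49 with log2(signal + 50), under the limit, and Syp (-0.61) was -0.51 and -0.37. Signal limits dim genes: 7.39% of identifiers with a brighter signal under 100, 9.44% from 100 to 300 and 2.20% from 1000 upward passed 1.5-fold in either direction. In the range under 100, signals below the minimum had been raised to it, which limits how large a ratio there can be.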

Other observations

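Genes for entry into the secretory pathway, which every secreted precursor such as Trh uses, were detected for 14 of 17 on the array. Over all identifiers the detected share was 31.2%. None of the 14 genes reached 1.5-fold. Their log2 fold changes ran from -0.19 to 0.27, with a median of 0.02 against 0.00 over all detected identifiers. Ssr2, a translocon-associated subunit, had a signal of 18057 without CHIR and 17310 with it, and its partner Ssr3 had 8338 and 9615.

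Among identifiers with a signal of 1000 or more on both arrays, the 5 with a ratio closest to that of Trh (log2 1.20) were AA467197 (1.32), Akp2 (1.06), Mylpf (1.02), Grsf1 (0.95) and Asns (0.88). Akp2 is an older symbol for the tissue-nonspecific alkaline phosphatase gene, whose product is stained in undifferentiated mESCs, with a signal of 1487 without CHIR and 3099 with it. Mylpf, a fast skeletal muscle myosin light chain, had 5843 and 11817, and Asns, asparagine synthetase, had 2289 and 4223. The likeness rests on 2 arrays and on the ratio alone. Of the other treatment check genes, Cdx1 had 75.2 and 963.2, while Sp5 (48.8 and 809.5) and T (8.05 and 394.5) were not detected in LIF. With the LIF signal raised to the minimum, Sp5 was 15.6-fold and T 7.60-fold higher. On the log2(signal + 50) scale the log2 fold change of Sp5 was 3.12 in place of 3.96.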
